A study of Homo sapiens and Mus musculus with 41 samples.

Results

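In the HCC1954 table, 91 of 23368 genes had a normalized count of at least 100 in each of the 3 libraries labelled parental and of at most 5 in each of the 7 libraries of derived cells. These values chose the genes, so the contrast itself is described here and not tested. The thresholds alone were met by 95 genes, and 4 of them (ADAMTS12, HOXB5, HOXB6 and INA) were set aside by name. The 91 genes are 0.781% of the 11651 genes that reached 100 in every library labelled parental. The opposite pattern, at most 5 in the libraries labelled parental and at least 100 in all derivatives, was met by 1 gene, MOCS1, which makes a precursor of the molybdenum cofactor.

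The series holds 41 RNA-seq libraries of 4 tumour cell models, and every parental line stably expressed GFP. HCC1954 is a human breast carcinoma line with high HER2, MDA-MB-231 a human breast carcinoma line negative for ER, PR and HER2, PC9 a human lung adenocarcinoma line with high EGFR, and LLC the Lewis lung carcinoma of the C57/B6 mouse. Each model has parental cells (Par), an intermediate stage derivative (Int), a leptomeningeal metastatic derivative (Lep) and a brain metastatic derivative (BrM), and the labels name no treatment. HCC1954 has 3 Par, 2 Int, 3 Lep and 2 BrM libraries, MDA-MB-231 and PC9 have 3, 2, 2 and 3, and LLC has 3, 2, 3 and 3. Derivatives recovered by washing the meninges of tumour-bearing mice were cultured until uniformly GFP-positive and passaged before RNA was taken, so all values describe cultured cells, and how many animals or clones stand behind a derivative is not stated in the labels. Recovered totals in HCC1954 ran from 25330801 to 67367833 reads, and the Int libraries were the deepest.

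A gene can go from active to silent in a cell line through DNA methylation of its promoter, Polycomb or heterochromatin marks, loss of the locus, or outgrowth of cells that never expressed it. A bulk RNA table shows none of these directly. It also cannot tell fewer expressing cells from less RNA per cell, and it reads RNA from any human cell in the tube as if it came from the named line.

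The libraries labelled HCC1954 Par stood apart in a way that bears on every value below, and the gene sets used to describe it were chosen after the data were seen. All 91 genes were present in PC9 Par, where the lowest value in any of the 3 libraries was 76.9, so 91 of 91 reached 50 in each, and 0 were at 5 or less in every PC9 library (0.498% of the 11651). Of all 11651 genes at 100 or more in the libraries labelled HCC1954 Par, 96.6% reached 50 in each PC9 Par library. Both PC9 counts are thus near the background share and are no result about the 91 genes. In MDA-MB-231 Par the count was 62 of 91 (92.1% of the 11651), and in LLC Par it was 32 of the 66 genes with a matching symbol (87.3% of the matched genes). Levels in the libraries labelled HCC1954 Par were also set against those in PC9 Par gene by gene. Across the 91 genes, Pearson's r of the log2 levels was 0.91 and Spearman's rho 0.87. Across the other 11560 genes at 100 or more, r was 0.87 and rho 0.92, so a correlation of this size is not particular to the 91. The median ratio was 0.95 for the 91 genes (quartiles 0.72 and 1.14) and 1.53 for the others (1.19 and 2.01). Within 2-fold lay 85 of 91 (93.4%), beside 74.1% of the others. A window around a ratio of 1 is off-centre for the others, so these 2 shares are not like for like. For MDA-MB-231 Par r was 0.13 over the 91 genes and 0.62 over the others, and 27 of 91 (29.7%) lay within 2-fold, beside 49.1%. For PC9 Int, Lep and BrM r over the 91 was 0.78, 0.81 and 0.77. These are descriptions across genes, which are not independent replicates, and the tables were normalized separately. A ratio of 1 between 2 tables therefore need not mark equal levels.

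**Figure D1:**
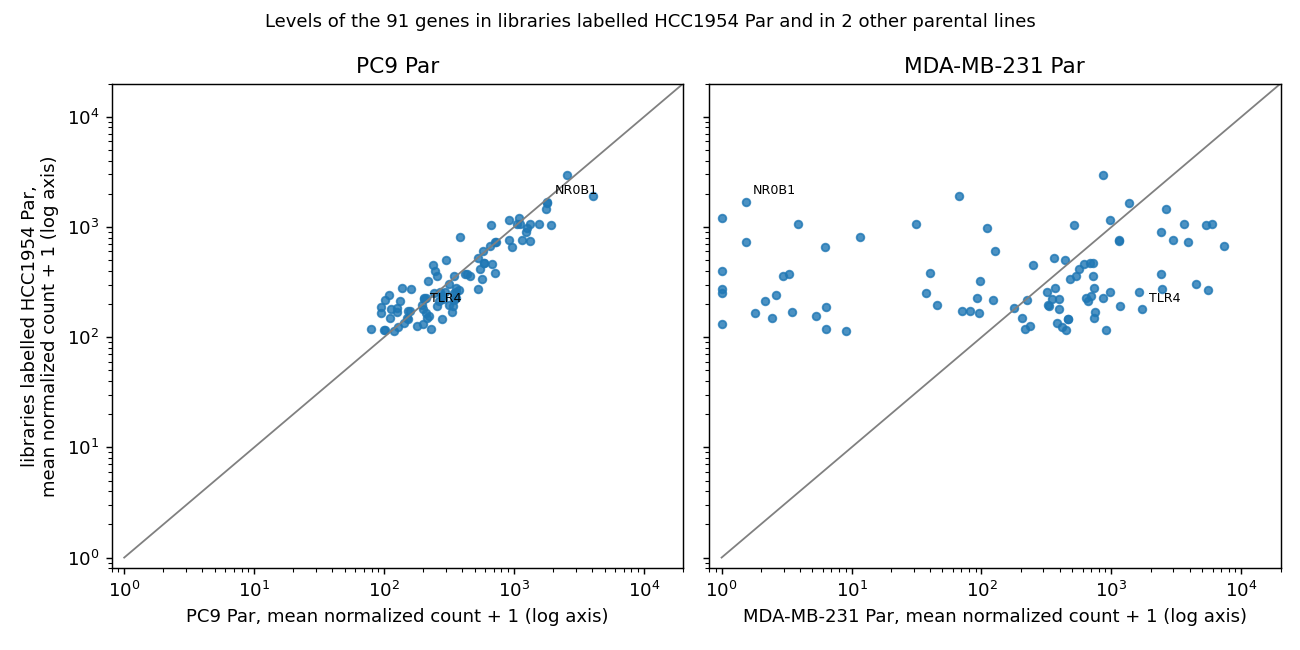
Mean normalized count + 1 of each of the 91 genes in the libraries labelled HCC1954 Par (vertical, log axis) against PC9 Par (left) and MDA-MB-231 Par (right, log axes). Each point is 1 gene, and the line marks equal normalized counts of tables that were normalized separately. Points lie along the line for PC9 (r = 0.91, beside 0.87 over the other genes at 100 or more) and spread over the whole horizontal range for MDA-MB-231 (r = 0.13, beside 0.62).

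Gene sets built without any value of the libraries labelled HCC1954 Par were also described. The counts below are given without a share over all genes at 100 or more in PC9 Par, and their cause was not tested. Of 112 genes at 100 or more in every PC9 Par library and at 5 or less in every HCC1954 derivative library, 110 reached 10 in all 3 libraries labelled HCC1954 Par. The exceptions were MARCH4 and NTSR1. A subset of 12 of these genes was also at 5 or less in every MDA-MB-231 library, and all 12 reached 10. Another set held 239 genes at 100 or more in every MDA-MB-231 Par library and at 5 or less in every HCC1954 derivative library. Of these 239, 110 (46.0%) reached 10 in all 3 libraries labelled HCC1954 Par. A subset of 80 of the 239 was also at 5 or less in every PC9 library. It had 0 genes at 10 in all 3, and 79 of the 80 were at 5 or less in all 3. The exception was WIPF1, with 4.39, 10.7 and 10.5. Conversely, 80 genes at 100 or more in every HCC1954 derivative library and at 5 or less in every PC9 library were lower in the libraries labelled HCC1954 Par than in the derivatives in 80 of 80 cases, at a median ratio of 0.35. For 10070 genes at 100 or more in the derivatives and in PC9 Par the median ratio was 0.97, and 5366 were lower. For 78 genes on in the derivatives and PC9 Par but off in MDA-MB-231 it was 0.96, and 44 were lower. These sets were chosen high in the derivatives with no minimum in the libraries labelled HCC1954 Par, which favours lower values there.

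The HER2 gene itself, ERBB2, had normalized counts of 59595, 57748 and 57461 in the libraries labelled HCC1954 Par. It had 153327 and 152226 in Int, 146037, 150579 and 144250 in Lep, and 394804 and 398639 in BrM. PC9 Par had 1775, 1879 and 1841. All 3 libraries labelled HCC1954 Par therefore lay between PC9 and the HCC1954 derivatives, without overlap. Summed counts of an 8-gene epithelial carcinoma list ran from 269467 to 273645 in the libraries labelled HCC1954 Par and from 222803 to 525020 in the derivatives. The list includes ERBB2, which makes up most of the sum in BrM (519938 to 525020). Without ERBB2, the sum over the other markers was higher in each library labelled Par than in any derivative library, the reverse of ERBB2. The sum does not show how each of these markers moved. Summed counts of the other marker lists differed between stages too. The endothelium list (4 genes) ran from 885 to 971 in the libraries labelled Par, 765 to 792 in Int, 521 to 626 in Lep and 4891 to 4927 in BrM. The macrophage and microglia list (7 genes) ran from 2908 to 2977 in Par and 2493 to 2769 in Lep, but from 1062 to 1328 in Int and 1021 to 1058 in BrM. The mesenchymal list (5 genes) ran from 21165 to 25582 in Par, 11421 to 12317 in Int and 27957 to 31308 in Lep and BrM. Fibroblast and pericyte sums lay between 576 and 1434 and neural and glial sums between 2750 and 3617 in all 10, and no marker was at 0 in every library. Their part in the results was not tested. Loss of expression in the derivatives and RNA of PC9 or PC9-like cells in the libraries labelled HCC1954 Par cannot be told apart from these tables. Because all 3 libraries were alike, no HCC1954 contrast with Par can be given without them, and "silenced" is not used for the 91 genes.

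**Figure D2:**
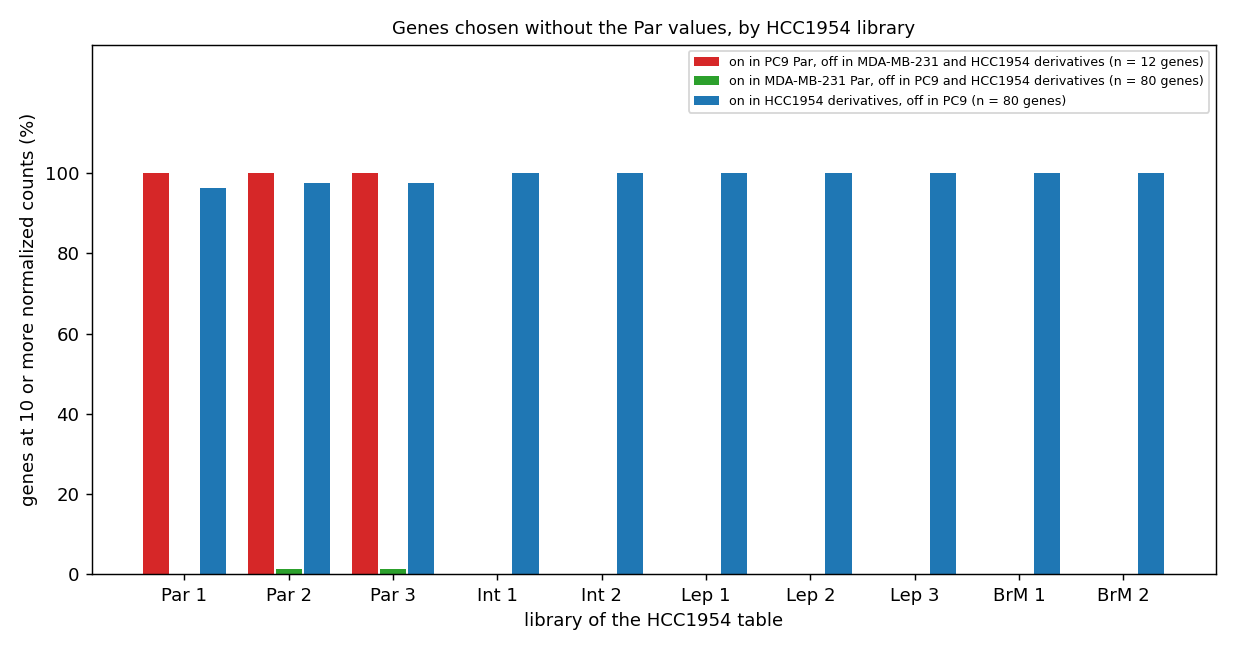
Share of genes at 10 or more normalized counts in each of the 10 HCC1954 libraries, for 3 sets chosen without the Par values: 12 genes on in PC9 Par and off in MDA-MB-231 and the HCC1954 derivatives, 80 genes on in MDA-MB-231 Par and off in PC9 and the derivatives, and 80 genes on in the derivatives and off in PC9. All 12 genes of the first set were present in each library labelled Par and at most 1 of the 80 genes of the second was.

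The rule was also read at lower minimums. With a minimum of 50 in place of 100 in the libraries labelled HCC1954 Par, and no name left out, 149 genes were at 5 or less in all derivatives, and 0 of them were at 5 or less in every PC9 library, beside 0.742% of all 12540 genes at that minimum. With a minimum of 20 there were 212, and 1 of them, CDH7, a cadherin, was at 5 or less throughout PC9, beside 1.11% of all 13585. These counts are near the background share and are no result about the genes. When PC9 Par took the place of the libraries labelled HCC1954 Par in the rule, 108 genes met it, of which 84 were among the 91 (92.3% of the 91 and 77.8% of the 108). Sharing here means only reaching 100 in every PC9 Par library, which 92.4% of the 11651 genes did, so the shared part equals the background. When MDA-MB-231 Par took that place, 231 genes met it and 57 were shared (62.6% of the 91 and 24.7% of the 231), beside 89.3% of the 11651 that reached 100 in every MDA-MB-231 Par library.

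RefSeq promoter windows, from 250 bases before to 50 after the start on GRCh38.p14, were at hand for 55 of the 91 genes (60.4%). This is under 80%, so a comparison of promoter content between the 91 genes and other genes is void and none is made. The 3 windows below belong to the genes with the highest level among those 55, and each CG pair, the site of DNA methylation, is in capitals. Each is written 5′ to 3′ along the gene's strand.
HKDC1 (chr10:69220082-69220381, plus strand): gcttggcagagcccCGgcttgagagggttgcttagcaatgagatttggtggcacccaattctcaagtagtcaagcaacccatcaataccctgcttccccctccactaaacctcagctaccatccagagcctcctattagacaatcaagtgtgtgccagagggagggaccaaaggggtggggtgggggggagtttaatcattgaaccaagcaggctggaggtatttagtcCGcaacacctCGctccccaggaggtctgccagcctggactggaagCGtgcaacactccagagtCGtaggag
NR0B1 (chrX:30309341-30309640, minus strand): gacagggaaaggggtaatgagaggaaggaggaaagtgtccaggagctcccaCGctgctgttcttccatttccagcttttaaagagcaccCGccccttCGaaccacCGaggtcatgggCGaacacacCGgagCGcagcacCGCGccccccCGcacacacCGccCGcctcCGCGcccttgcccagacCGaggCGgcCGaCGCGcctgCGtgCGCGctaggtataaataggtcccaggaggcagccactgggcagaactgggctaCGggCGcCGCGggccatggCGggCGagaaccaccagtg
CBR1 (chr21:36069774-36070073, plus strand): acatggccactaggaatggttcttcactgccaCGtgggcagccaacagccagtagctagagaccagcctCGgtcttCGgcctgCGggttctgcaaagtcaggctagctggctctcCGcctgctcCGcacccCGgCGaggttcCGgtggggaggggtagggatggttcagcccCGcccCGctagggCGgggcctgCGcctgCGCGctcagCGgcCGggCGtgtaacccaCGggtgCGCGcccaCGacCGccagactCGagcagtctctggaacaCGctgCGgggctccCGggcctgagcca
HKDC1 held 5 CG pairs, NR0B1 28 and CBR1 27. A CG pair reads the same on both strands, 96.0% of the 35116 windows in the table hold at least 1, and their median is 14. Genes with the same on and off pattern therefore had both CG-poor and CG-dense windows.

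The 91 genes encode proteins of many kinds. By textbook role, 8 act in immune or inflammatory signalling, 11 are other receptors, channels and kinases, 8 are secreted, matrix or surface proteins, and 12 are enzymes or transporters of metabolism and the secretory pathway. A further 7 belong to the ubiquitin system, 10 are zinc finger factors, 6 are other transcription or RNA proteins, 3 belong to the cytoskeleton or cilium, and 8 are non-coding or pseudogene symbols. SIVA1 and CSAG1 stand alone as an apoptosis gene and a cancer-testis antigen, and 16 are given no role. Symbols starting with ZNF, ZSCAN, ZKSCAN or ZFP made up 11.0% of the 91 and 3.61% of the 11651. LOC and similar non-coding symbols made up 5.49% and 1.85%. These shares were not tested.

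Mean normalized counts in the libraries labelled HCC1954 Par had a median of 266 and were at least 112, and 13 genes had a mean of 1000 or more. Counts are not scaled to gene length, so they compare libraries and not genes. The median coefficient of variation over the 3 libraries was 5.65% for the 91 genes, beside 2.89% for all genes at 100 or more. In the derivatives 63 genes had a mean of 1 or less, and the sum over the 91 genes was 0.130% to 0.252% of its mean in the libraries labelled Par. The derivative libraries held 46 to 134 reads on these genes, against 33094 to 38859 in the libraries labelled Par. No read was counted in any of the 7 derivative libraries for FAM135A, ZNF528, KIAA1383, NOVA1, CD200 and C5orf63. A count of 0 still allows up to 3 reads per library, a value of 1.57 to 3.88 depending on depth, which covers counting error only.

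**Figure D3:**
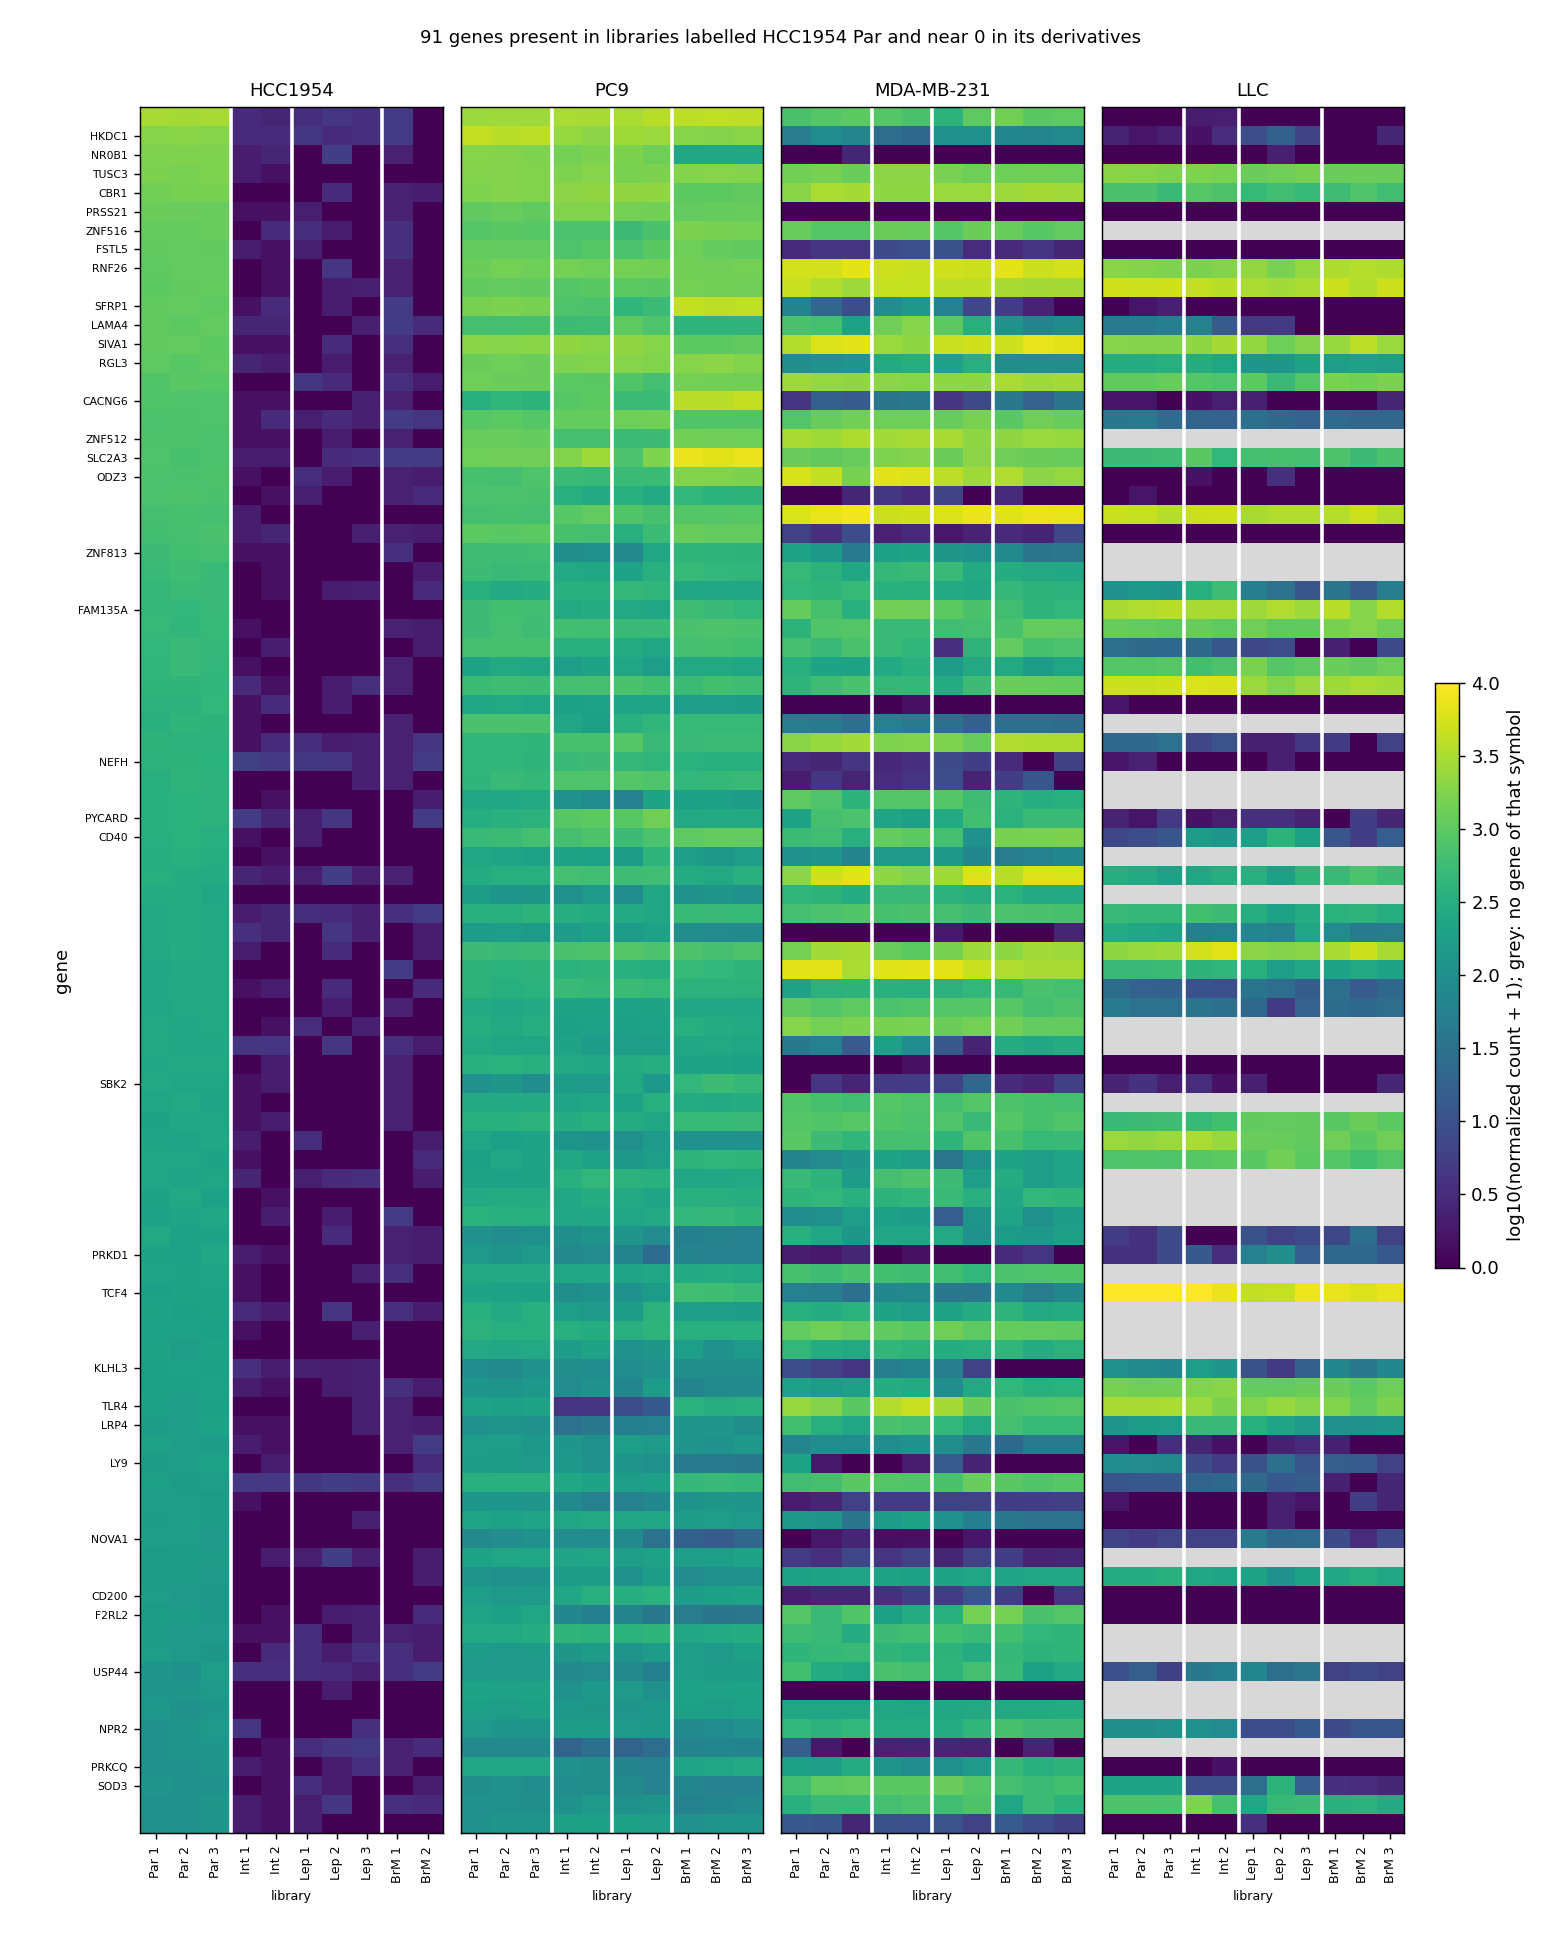
log10(normalized count + 1) of the 91 genes (rows, ordered by mean in the libraries labelled HCC1954 Par) in the 41 libraries of the 4 models (columns), with names for some rows and grey where LLC has no gene of that symbol. The rows are bright in the libraries labelled HCC1954 Par and dark in its 7 derivatives, bright in nearly all PC9 libraries, and mixed in MDA-MB-231 and LLC.

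Among the immune and inflammatory genes, PYCARD, the inflammasome adaptor ASC, had 349.9, 351.9 and 370.3 in the libraries labelled HCC1954 Par, and at most 4.21 in a derivative. CD40, a costimulatory receptor of the TNF receptor family, had 324.7, 355.5 and 333.4, and at most 1.17. TLR4, the receptor for bacterial lipopolysaccharide, had 186.5, 171.8 and 181.8, and at most 1.29. CD200, a surface protein that restrains myeloid cells, had 166.7, 144.6 and 133.1 and was at 0 in all 7. Others of this kind were LY9, NFATC1 and PRKCQ. All of them separated the 2 kinds of library fully, as the rule requires.

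Among secreted and matrix proteins, SFRP1, a Wnt antagonist, had 1053, 1088 and 1024 in the libraries labelled HCC1954 Par and at most 3.88 in a derivative. LAMA4, a laminin chain of vascular and muscle basement membranes, had 1041, 990 and 1108, and at most 3.88. PRSS21, the membrane-anchored serine protease testisin, had 1264, 1199 and 1168, and at most 1.29. FSTL5, a follistatin-like secreted protein, had 1050, 1095 and 1067, and at most 2.59. TIMP4, SOD3, QPCT and the teneurin ODZ3 complete the group.

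Of the metabolic enzymes, HKDC1, a hexokinase-like protein, had 1845, 1952 and 1894, with at most 3.88 in a derivative. CBR1, a carbonyl reductase, had 1404, 1486 and 1522, with at most 2.16. TUSC3, a subunit of the oligosaccharyltransferase that glycosylates new proteins, had 1628, 1581 and 1709, and 5 of the 7 derivative libraries were at 0. SLC2A3, the glucose transporter GLUT3, had 801.9, 677.8 and 743.2, with at most 4.17, and its near-identical copy SLC2A14 could share its reads. TMX3, P4HTM, CA2, ME3, GAMT, ISPD, PTPLAD2 and SEC14L4 make up the rest.

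NR0B1, the orphan nuclear receptor DAX1, had 1700, 1706 and 1693 in the libraries labelled HCC1954 Par, and its highest derivative value was 4.32 in Lep replicate 2. TCF4, a basic helix-loop-helix factor, had 181.0, 205.0 and 204.2, and 6 derivative libraries were at 0. NOVA1, a neuronal splicing regulator, had 171.1, 174.2 and 144.9. ZNF516 led the zinc finger genes with 1115, 1139 and 1191, and ZNF512 had 763.5, 763.1 and 740.6. Zinc finger genes of clustered families can share reads with close copies, as can the pseudogene symbols NUDT16P1 and USP32P2. RNF26, a ubiquitin ligase of the endoplasmic reticulum, had 1018, 1075 and 1103, with at most 3.24 in a derivative. CACNG6, a calcium channel gamma subunit, had 829.3, 795.1 and 789.3, with at most 1.29.

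The thresholds cut through a continuum. Just inside the lower limit for Par were DDX43 (lowest value 102), QPCT (104), USP44 (107.8), LOC100132077 (109.7) and NPR2 (113). Just outside were LOC339290 (98.8), TNFRSF18 (98.4), PDLIM4 (97.6), CTF1 (96.0) and NKX2-5 (94.8). On the derivative side NEFH (highest value 4.74), GAMT, C2orf65, NR0B1 and SNPH (each 4.32) were inside, and ZNF300 (just above 5), AADAC, SYCP2L, MAL and NINJ2 (each 5.18) outside.

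In PC9 every one of the 91 genes was expressed in Par, and none was chosen by its change there. The derivatives lowered some and raised others, and none of the 91 went to 5 or less in all 7 derivative libraries. The rule may still favour genes high in PC9 Par, since the levels it used ran close to those in PC9 Par. Each of the 91 was at 76.9 or more in every PC9 Par library, while the 14475 genes tested can include genes low in Par. Such genes have less room to fall, so the shares called lower are not like for like. The 3 comparisons share the PC9 Par libraries. Lep with Par called 2 genes higher and 17 lower by limma, beside 6.65% higher and 8.49% lower among all 14475 genes tested. The 17 are 18.7% of the 91 genes, and the median log2 fold change was -0.25. Int with Par called 2 higher and 13 lower (14.3%), beside 6.24% and 7.71%, with a median of -0.17. BrM with Par called 6 higher and 6 lower (6.59% each), beside 4.62% and 3.10%, with a median of -0.01. Marker sums moved with these stages. The mesenchymal list (5 genes) ran from 3649 to 4069 in PC9 Par and from 158442 to 166454 in BrM. The endothelium list ran from 270 to 315 in Par and 267 to 285 in BrM, but from 843 to 1140 in Int and Lep, and the epithelial list was 232001 to 246329 in Par and 352199 to 487647 in the derivatives. Their part in the PC9 changes was not tested.

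TLR4 had the largest change in PC9. It had 204, 182 and 205 in Par, 3.14 and 3.28 in Int, 8.07 and 12.5 in Lep, and 353, 314 and 321 in BrM. Int and Lep lay far below Par and BrM, with no overlap. The log2 fold change was -5.55 ± 0.19 (standard error) in Int (limma adjusted p = 2.1e-09) and -4.16 ± 0.19 in Lep (limma adjusted p = 1.1e-08), and in BrM it was not called. PYCARD went the other way in the same stages, with 315, 351 and 371 in Par, 903 and 995 in Int, 912 and 1345 in Lep, and 259, 273 and 269 in BrM. Its log2 fold change in Lep was 1.68 ± 0.14 (limma adjusted p = 4.1e-07). CD200 rose in Lep by 1.15 ± 0.14 on the log2 scale (limma adjusted p = 1.6e-05), from 167, 141 and 141 in Par to 309 and 358. PRKCQ, the T cell kinase PKC theta, had 223, 231 and 234 in Par, 106 and 95.1 in Int and 60.1 and 53.5 in Lep. It fell by 2.00 ± 0.14 on the log2 scale in Lep (limma adjusted p = 1.1e-07).

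SFRP1 moved in both directions within PC9. It had 1536, 1598 and 1492 in Par, 790.0 and 746.5 in Int, 432.0 and 534.1 in Lep, and 4277, 4038 and 4135 in BrM. Lep was the lowest stage and BrM the highest, with no overlap between any 2 stages. The log2 fold change was -1.68 ± 0.08 in Lep (limma adjusted p = 1.5e-08) and 1.43 ± 0.07 in BrM (limma adjusted p = 1.8e-08). F2RL2, the thrombin receptor family member PAR3, had 217, 188 and 238 in Par and at most 70.4 in any derivative library. It fell in all 3 stages, with log2 fold changes of -1.81 ± 0.22 in Int, -2.08 ± 0.22 in Lep and -2.40 ± 0.20 in BrM.

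The largest PC9 changes in BrM were in CACNG6, NR0B1 and SLC2A3. CACNG6 had 329.9, 426.3 and 389.0 in Par, 916.4 and 971.9 in Int, 523.7 and 528.2 in Lep and 3896, 3811 and 4224 in BrM, a log2 fold change of 3.38 ± 0.09 in BrM (limma adjusted p = 5.3e-11). NR0B1 had 1853, 1821 and 1708 in Par, 1475 and 1627 in Int, 1603 and 1316 in Lep and 225, 239 and 237 in BrM, a fall of 2.94 ± 0.08 (limma adjusted p = 7.0e-11). SLC2A3 had 1289, 1351 and 1344 in Par and 7527, 6527 and 7743 in BrM, a rise of 2.45 ± 0.22 (limma adjusted p = 2.9e-06). SBK2, a kinase-domain protein, TCF4 and ODZ3 also rose in BrM, by 2.18, 1.49 and 1.27 on the log2 scale. NOVA1, LY9, PRKD1 (protein kinase D1) and HKDC1 fell there, with log2 fold changes of -2.44, -1.86, -1.19 and -1.09. Among the zinc finger genes ZNF813 fell by 2.14 ± 0.30 in Lep and 2.53 ± 0.30 in Int, and ZNF347, ZNF512 and ZNF549 were also called lower in Lep. Without Lep replicate 1 the log2 fold change of ZNF347 went from -1.28 to -0.37 and that of ZNF549 from -1.03 to -0.70, and neither was called. ZNF549 was also lost with edgeR (-0.98) and with quantile normalization (-0.95). Lep replicates differed there: ZNF813 had 74.8 and 224, against 565, 562 and 600 in Par.

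**Figure D4:**
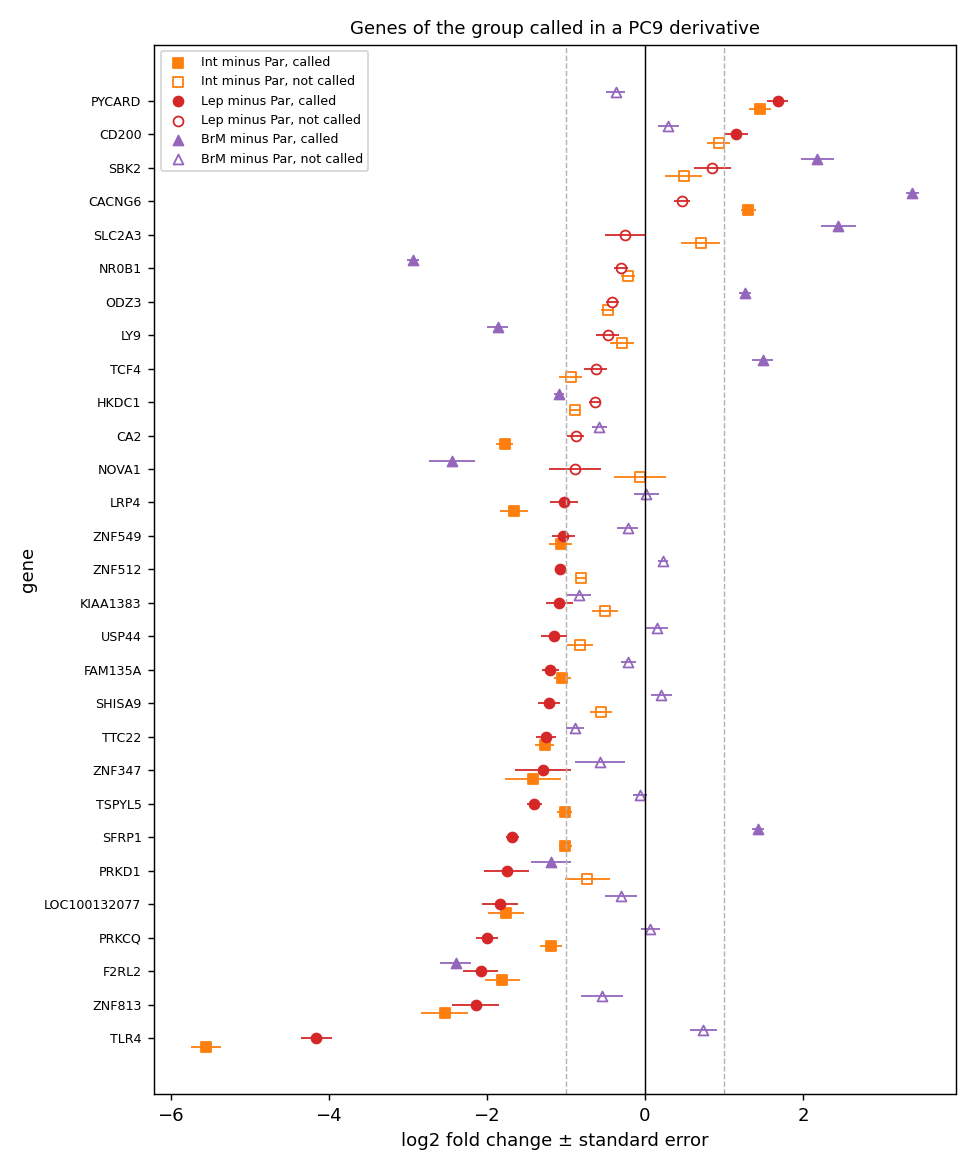
log2 fold change ± standard error (horizontal) of each gene of the group called in at least 1 PC9 derivative against Par, with Int, Lep and BrM as separate symbols, filled where called; dashed lines mark a change of 1 in size. TLR4 lies farthest left in Int and Lep, CACNG6 farthest right in BrM, and SFRP1 lies left of 0 in Lep and right of 0 in BrM.

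In the mouse line LLC, 66 of the 91 symbols matched when case was ignored, and 25 did not, among them all 10 zinc finger symbols and CA2. Of the 66, 21 were at 5 or less in every LLC library, against 4.49% of the matched genes at 100 or more in the libraries labelled HCC1954 Par. They include NR0B1, PRSS21, FSTL5 and SFRP1. The 43 genes that passed the filter include those carried by a single stage, so the counts describe these genes and not all members. Of the 92 calls in the 3 other models, 15 had every library of the lower group under the filter value of 10, and 13 of these were in LLC. Of the 43, Lep with Par called 4 higher (9.30%) and 14 lower (32.6%), beside 8.00% higher and 12.3% lower of all genes tested. The median log2 fold change was -0.57. BrM with Par called 2 higher and 14 lower (4.65% and 32.6%, beside 8.14% and 15.1%). Int with Par called 4 and 4 (9.30% each, beside 6.40% and 5.08%). The comparisons share the LLC Par libraries.

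CD40 rose most in LLC. It had 6.40, 7.97 and 10.7 in Par, 152 and 125 in Int, 173, 391 and 189 in Lep, and 10.2, 4.37 and 14.8 in BrM. Int and Lep lay above Par and BrM without overlap, and the log2 fold change in Lep was 4.67 ± 0.42 (limma adjusted p = 6.7e-06). SOD3, the extracellular superoxide dismutase, had 201, 205 and 203 in Par, 8.22 and 7.88 in Int and 2.54, 2.18 and 1.65 in BrM, a log2 fold change of -6.04 ± 0.86 in BrM (limma adjusted p = 1.4e-04). In Lep it had 26.8, 391 and 14.8, so 1 library lay above Par, and it was not called there. NPR2, the natriuretic peptide receptor B, had 93.2, 93.6 and 114 in Par, 104 and 84.4 in Int, 7.67, 7.67 and 12.7 in Lep and 7.61, 10.9 and 9.88 in BrM. It fell by 3.32 ± 0.30 in Lep (limma adjusted p = 5.6e-06) and 3.28 ± 0.30 in BrM (limma adjusted p = 8.0e-06). LAMA4 had 44.1, 45.1 and 52.3 in Par, at most 3.83 in Lep and 0 in all 3 BrM libraries. LY9, a receptor of the SLAM family, had 86.1, 85.0 and 82.0 in Par and at most 29.4 in a derivative, and was called lower in all 3 stages.

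In MDA-MB-231, 8 of the 91 genes were at 5 or less in every library, against 1.84% of the 11651, among them NR0B1, PRSS21, PTPLAD2, FOXE1, PRKD1, NOVA1 and ZNF280B. The 73 genes tested gave 0 calls in Lep (8 at an unadjusted p below 0.05, and 2 calls with DESeq2), beside 0.0662% of all genes. BrM also gave 0 by limma (19 at an unadjusted p below 0.05, and 7 with DESeq2), beside 0.450%. Int gave 2 higher and 2 lower (2.74% each), beside 4.33% and 2.61%. KLHL3, an adaptor of a cullin ubiquitin ligase, rose from 8.06, 4.93 and 3.23 in Par to 51.2 and 63.9 in Int (log2 fold change 3.25 ± 0.79, limma adjusted p = 0.038). Its Par and BrM values were all under the filter value of 10, so it was tested only through the stages where it was high. RGL3, a Ral exchange factor, rose from 92.7, 109 and 126 to 282 and 310 (1.44 ± 0.27, limma adjusted p = 0.020). HKDC1 fell from 47.4, 86.3 and 66.3 to 26.2 and 21.8 (fall of 1.40 ± 0.30, limma adjusted p = 0.028), and SIVA1, a proapoptotic protein, fell from 3458, 6148 and 6506 to 2545 and 2108 (fall of 1.16 ± 0.28, limma adjusted p = 0.038). The MDA-MB-231 libraries varied most: without 1 library the Int count ran from 0 to 15, and with a replicate block it was 2. Replicates within MDA-MB-231 Par differed by a chi-square per degree of freedom of up to 454, against 1.53 to 1.87 in the libraries labelled HCC1954 Par.

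The on and off rule itself, applied to the other tables, was met by 0 genes in PC9, 0 in MDA-MB-231 and 2 in LLC, 1 of them PI16, and by 0 of the 91 genes.

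Genes next to the 91 on the chromosome were measured in HCC1954 but were not used by the rule. RefSeq order gave 169 tested neighbours of the 86 genes that matched the annotation. Lep with Par called 53 lower and 18 higher, beside 13.8% lower and 13.0% higher of all 15561 genes tested, so 31.4% of neighbours were lower. Int gave 57 lower and 9 higher (33.7% lower, beside 14.6%), and BrM 50 and 8 (29.6% lower, beside 14.0%), and 43 neighbours were lower in all 3. These contrasts share, and rest on, the libraries labelled HCC1954 Par. Of the 53 neighbours lower in Lep, 40 (75.5%) had a level in those libraries within 2-fold of PC9 Par, beside 74.8% of all 2149 genes called lower in Lep, a share equal to the background. A derivative mean of 5 or less was found in 27 of the 53 (50.9%), beside 25.0% of the 2149.

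Neighbours with large changes were spread in their ratio to PC9 Par. SGK110, beside SBK2, had means of 1087 ± 74.0 (SD over 3 technical replicate libraries) in the libraries labelled HCC1954 Par, 3.00 over the derivatives and 1121 in PC9 Par. MAGEA12, a cancer-testis antigen beside CSAG1, had 675.6, 1.39 and 1046. CACNG8, the calcium channel gamma subunit gene beside CACNG6, had 437, 7.38 and 207. DLC1, a GTPase activating protein, had 97.4, 0 and 95.7. SGK110, MAGEA12 and DLC1 lay within 2-fold of PC9 Par and CACNG8 just outside, at a ratio of 2.11. Others lay farther from it: TMPRSS6 had 247 and 4.04, with 49.0 in PC9 Par, and ZNF610, named after its values were seen, had 34.4 and 1.60, with 2.08 in PC9 Par.

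Symbol relatives, 106 genes that share a symbol stem with 30 of the 91, moved both ways. They were grouped by name alone, and a shared stem does not make genes members of the same family. Lep with Par called 23 higher and 18 lower (21.7% and 17.0%, beside 13.0% and 13.8% of all genes). Int called 12 and 23 (11.3% and 21.7%, beside 6.60% and 14.6%), and BrM 22 and 21 (20.8% and 19.8%, beside 9.63% and 14.0%). PRSS3, a trypsin, fell from a mean of 137.5 to 0.360 in Lep, and TLR2, the lipopeptide receptor, rose from 30.6 to 1877 (log2 fold change 5.93 ± 0.15, limma adjusted p = 7.0e-13). ODZ2, a teneurin, rose from 2.72 to 149 in Lep, while ODZ3, one of the 91, was at most 2.35 there. PRSS3 in Lep and ODZ2 in Par lay under the filter value of 10, so each was tested only through other stages.

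Of 34 enzymes and cofactors of DNA methylation, Polycomb and heterochromatin, 27 had an adjusted p below 0.05 in Lep but only 3 reached a log2 fold change of 1, and these contrasts rest on the same libraries. In Lep, IDH1, whose product feeds 2-oxoglutarate to demethylases, fell by 1.83 ± 0.04 and TRIM28, the corepressor of zinc finger proteins, by 1.17 ± 0.04, and JARID2, a Polycomb cofactor, rose by 1.12 ± 0.05. In Int, BMI1 rose by 1.10 ± 0.14 and CBX7 fell by 1.43 ± 0.06, both Polycomb subunits. In BrM, SUV39H1, a histone methyltransferase, rose by 1.02 ± 0.06, TRIM28 fell by 1.50 ± 0.04 and CBX7 by 1.09 ± 0.06. The DNA methyltransferase DNMT1 had a log2 fold change of 0.42 ± 0.03 in Lep, under the limit of 1. Percentages called were 8.82%, 5.88% and 8.82% of the 34 in Lep, Int and BrM, beside 26.8%, 21.2% and 23.6% of all genes.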

How the data were processed

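Poly-A RNA was sequenced in 41 libraries of cultured cells. The deposited tables hold, per model, a signal made by the authors from gene counts divided by 1 size factor per library: every value was a whole multiple of 1 read's worth (100% within a tolerance of 0.01), and DESeq2 1.42.0 factors recomputed from those reads matched. The submitters' processing notes name FastQC 0.11.3, HTSeq 0.5.4, DESeq2, hg19 (GRCh37) and mm10 (GRCm38), without roles. Which aligner was used is not stated in them. The library kit does not mark strand, so reads of overlapping antisense genes cannot be told apart.

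limma 3.58.1 (trend, R 4.3.3) was run on log2(value + 1) over genes with a value of 10 in 2 or more libraries, with each model's libraries fitted together and no replicate block. A gene was called at a Benjamini-Hochberg adjusted p below 0.05 and a log2 fold change of at least 1 in size. Alternatives were edgeR 4.0.16 and DESeq2 on recovered reads, a pseudocount of 5, no filter, quantile normalization, a replicate block, the 2 groups alone, and each library left out. The fitting script was tested on simulated data. Same-numbered MDA-MB-231 Par and BrM libraries deviated together (correlations 0.50, 0.26 and 0.23), and the block left 0 members called there.

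The members and all lists were chosen with earlier results of these data known. Named genes are the 20 members with the highest Par mean, those at 0 in every derivative library, those called in another model (the 25 largest changes), those nearest the thresholds, and up to 10 called neighbours and 10 called relatives; a few genes that this rule names are not reported here. Par replicates are technical per the labels, and Int and Lep replicates are partly so, so p-values measure the spread between these libraries.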

Additional observations from a re-analysis of the deposited data

Results flagged for a closer look

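Some genes of the group were called in opposite directions in LLC and PC9 under the same contrast, with groups that did not overlap in either model. The difference between models was not tested, because the tables were normalized separately. The log2 fold change of LRP4 in Int, an agrin receptor subunit, was 1.74 in LLC and -1.65 in PC9. PRKD1 gave 3.17 in LLC and -1.75 in PC9 in Lep, and 1.91 and -1.19 in BrM, from LLC Par values of 2.85, 2.66 and 7.13. These Par values are all under the filter value of 10, so PRKD1 was tested in LLC only through its derivatives, and its LLC call in BrM was lost without the filter and in 4 of the fits with a library left out (1.71 to 1.80). USP44, a deubiquitinase, gave 2.09 in LLC and -1.15 in PC9 in Lep, but without PC9 Lep replicate 2 the PC9 value was -0.90 and not called. TCF4 gave -1.47 in LLC and 1.49 in PC9 in BrM.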

How the results depend on the processing

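No called gene of the group reversed under any alternative run. Of 92 calls in the other models, 65 were kept in every alternative and 27 were lost in at least 1, among them all 4 in MDA-MB-231 Int, and in LLC PRKD1 in BrM and TLR4 in BrM. In MDA-MB-231 Int the count of 4 became 12 with DESeq2, 2 with a replicate block, 2 with the 2 groups alone, and ran from 0 to 15 with a library left out: 15 without Par replicate 1, 1 without Par replicate 3, and 0 without Par replicate 2 or either Int library. In BrM the count of 0 became 7 with DESeq2, 1 with a pseudocount of 5, and ran from 0 to 7 (7 without Par replicate 3). In Lep the count of 0 became 2 with DESeq2 and ran from 0 to 1 (1 without Lep replicate 2). In LLC Int the count of 8 ran from 5 to 8 (5 without Int replicate 2). The cause was not tested. The replicate block changed no other count by over 1.5 times, and labels do not say that a number marks a shared batch. The group had 58 genes with a Par minimum of 200, 39 with a derivative maximum of 2 and 138 with a maximum of 10, and 91 to 97 with a library left out. MDA-MB-231 Par in place of the libraries labelled HCC1954 Par gave 231, an alternative chosen after seeing the data. Quantile normalization moved the median log2 fold change of all HCC1954 genes in Int from 0.01 to 0.12. Depth limits values under 5, which rest on a few reads.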
